A study of Mus musculus with 2 samples.

Results

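The genes described are the 36 constitutive proteasome genes measured in tumor mononuclear phagocytes (TMPs) of B16 melanoma, a transplantable mouse melanoma line. They are the rows whose symbol is Psma, Psmb, Psmc or Psmd followed by a number and that had a unique molecular identifier (UMI, 1 counted transcript end) in at least 3 cells, without the immunoproteasome genes Psmb8, Psmb9 and Psmb10. All 36 of 36 matching symbols passed that filter, of 16071 genes that did. By particle part they are 8 alpha ring, 8 beta ring, 6 ATPase and 14 non-ATPase genes.

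The study compared Fcmr+/+ with Fcmr-/- C57Bl/6 mice, where Fcmr encodes a receptor for IgM and is lacking in the Fcmr-/- animals. Both groups carried B16 tumors, and the MerTk+ CD64+ cells of dissociated tumors were sorted by flow cytometry and loaded as 1 droplet library per genotype. The question addressed was how the loss of Fcmr alters the makeup of mature tumor phagocytes. The number, age and sex of the mice behind each library are not given in the sources used here, so no test between genotypes was possible and every interval below is a 95% interval that covers counting error only.

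The Fcmr+/+ library held 128408544 UMIs in 6352 cells kept, and the Fcmr-/- library 124630621 UMIs in 7999 cells kept. The median depth was 17974 UMIs per Fcmr+/+ cell and 12911 per Fcmr-/- cell. Of Fcmr itself only 7 UMIs were counted in the Fcmr+/+ library and 6 in the Fcmr-/- library, so its level does not check either genotype label. All 9 macrophage markers looked at, among them Csf1r, Fcgr1 and Mertk, were detected in both libraries, the lowest at 48.7 UMIs per 1000000 UMIs (CPM), and their summed level was 14440 CPM in Fcmr+/+ and 14539 CPM in Fcmr-/- cells. Markers of other cells were scarce in summed CPM, but several lists were higher in the Fcmr-/- library. The values were 0.864 against 14.5 CPM for 5 T and NK cell genes, 8.16 against 13.4 CPM for 7 dendritic cell genes and 40.2 against 63.6 CPM for 5 melanoma genes. The B cell and fibroblast lists were not higher, with 0.343 against 0.337 CPM and 0.864 against 0.762 CPM. No gene used from these lists was at 0 in either library. Their part in the differences below was not tested. The libraries had 73 cell barcodes in common, and in a check added after the data were seen, without these cells, the summed proteasome ratio between genotypes stayed at 0.04 on the log2 scale.

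The proteasome is the protease that degrades ubiquitin-tagged proteins. Its core is a barrel of stacked alpha and beta rings, with the proteolytic sites on beta subunits inside and a gate formed by the alpha rings. A cap built from a ring of ATPases and a set of non-ATPase subunits binds ubiquitin chains, removes them, unfolds the substrate and feeds it into the core. In cells exposed to interferons the 3 catalytic subunits Psmb5, Psmb6 and Psmb7 can be replaced by Psmb8, Psmb9 and Psmb10, which gives the immunoproteasome and alters the peptides available to MHC class I. Macrophages are among the cells that carry both forms.

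The constitutive subunits together made up 5985 CPM of the Fcmr+/+ library (interval 5972 to 5998) and 6144 CPM of the Fcmr-/- library (interval 6131 to 6158). The 2 sums differed by 2.66%, a log2 ratio of Fcmr-/- to Fcmr+/+ of 0.04 (interval 0.03 to 0.04). In the same cells the 3 immunoproteasome catalytic genes were at 413 CPM in Fcmr+/+ and 759 CPM in Fcmr-/- cells, which is a log2 ratio of 0.88 with an interval of 0.86 to 0.89. As the mean over the clusters described below, the log2 ratio was 0.35 for these 3 genes and -0.02 for the constitutive subunits. The summed level also moved with cell depth. It ran from 5330 CPM in Fcmr+/+ and 5533 CPM in Fcmr-/- cells in the quartile of cells with the fewest UMIs, over 5658 and 6047 CPM and then 5923 and 6271 CPM, to 6172 and 6357 CPM in the quartile with the most, so that it was higher in Fcmr-/- cells at each depth. The constitutive particle was near level between the libraries where its interferon-inducible counterpart was not.

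Levels were counted at transcript ends, so a UMI count is not scaled by gene length, but ends can still be captured unequally between genes. Genes of the core were the most abundant by this count. Their median over the 14 ring genes above 5 CPM was 250.04 CPM in Fcmr+/+ and 275 CPM in Fcmr-/- cells, against 99.6 and 105 CPM for the ATPases and 107 and 107 CPM for the non-ATPases. The 6 ATPases, which occupy the ring in equal numbers, lay within 1.55-fold of each other in Fcmr+/+ cells, and the 14 ring genes within 3.32-fold. The non-ATPases spanned 21.9-fold, from Psmd5 at 21.0 CPM to Psmd8 at 460.4 CPM. Psmd5, Psmd10 and Psmd9, the lowest at 21.0, 34.2 and 41.7 CPM, encode assembly chaperones that leave the cap before it is complete. In Fcmr+/+ cells the other non-ATPases ran from Psmd3 at 82.4 CPM to Psmd8, with Psmd4 next below Psmd8 at 131 CPM. Ordered by level, the 36 genes stood in nearly the same order in both libraries (Spearman's rho 0.992 across genes, which are not independent replicates).

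**Figure D1:**
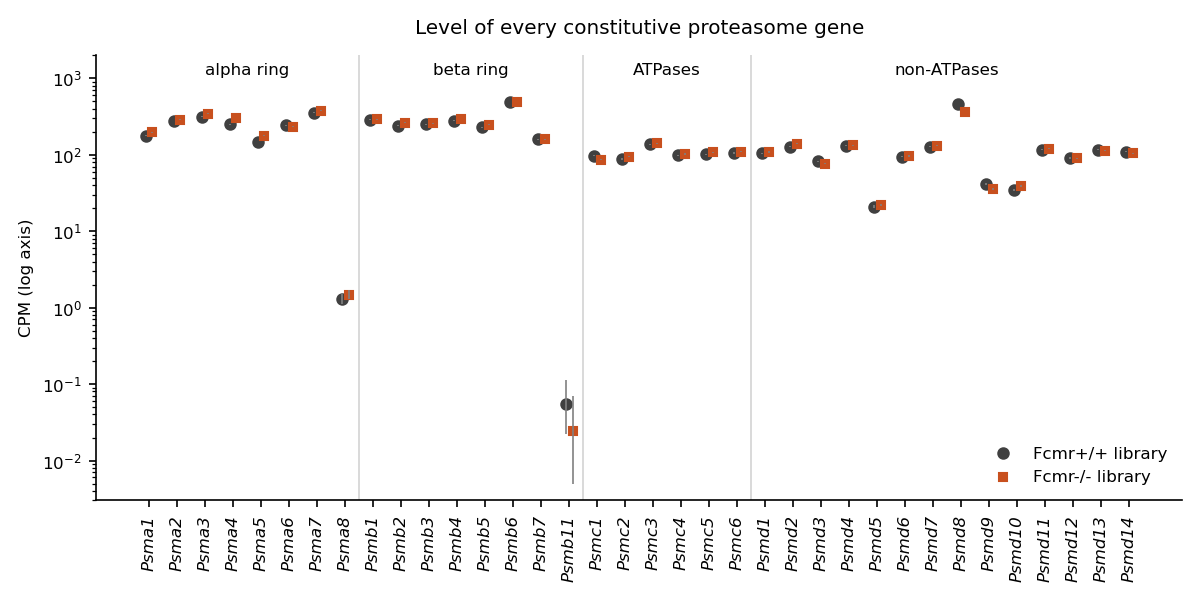
CPM of each of the 36 constitutive proteasome genes on a log axis, with the Fcmr+/+ library as circles and the Fcmr-/- library as squares, grouped by particle part, and bars as 95% counting intervals. All but Psma8 and Psmb11 lie between 21.0 CPM and 492 CPM, and for these 34 genes the 2 libraries lie between log2 ratios of -0.35 and 0.28.

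A pair of members was all but silent. Psma8, the alpha subunit of the germ cell proteasome, had 167 UMIs in Fcmr+/+ and 185 UMIs in Fcmr-/- cells, which is 1.30 and 1.48 CPM, with a UMI in 2.35% and 2.15% of cells. It resembles Psma7 in sequence, which was at 357 and 379 CPM in the same libraries, and whether any Psma8 UMI came from Psma7 was not tested. Psmb11, the catalytic subunit of the thymus proteasome, had 7 UMIs in Fcmr+/+ and 3 UMIs in Fcmr-/- cells, each UMI in a cell of its own, with a log2 ratio of -1.18 and an interval from -3.76 to 0.95. Both stayed below the minimum of 5 CPM in either library and were left out of the calls, so the counts below are over 34 of the 36 members.

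Of those 34 members, 2 were at least 1.2-fold higher in the Fcmr-/- library, beside 9.65% of all 8701 genes above the same minimum, and 1 was at least 1.2-fold lower, beside 10.8% of genes. The 2 higher were Psma4 and Psma5 and the 1 lower was Psmd8. Within 1.2-fold lay 31 of the 34, against 79.5% of all genes. The log2 ratios of the 34 had a standard deviation of 0.12, against 0.32 over all genes, and a median of 0.05, against 0.00. By any amount 25 of 34 were higher in Fcmr-/- cells, where 50.5% of all genes were. The counting interval lay above 0 for 20 members, below 0 for 7 and over 0 for 7. At this number of UMIs small ratios suffice, since Psmc3 at 0.04 had an interval of 0.01 to 0.07. The share of all genes with such intervals is not given here, so these counts are not a result particular to members.

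**Figure D2:**
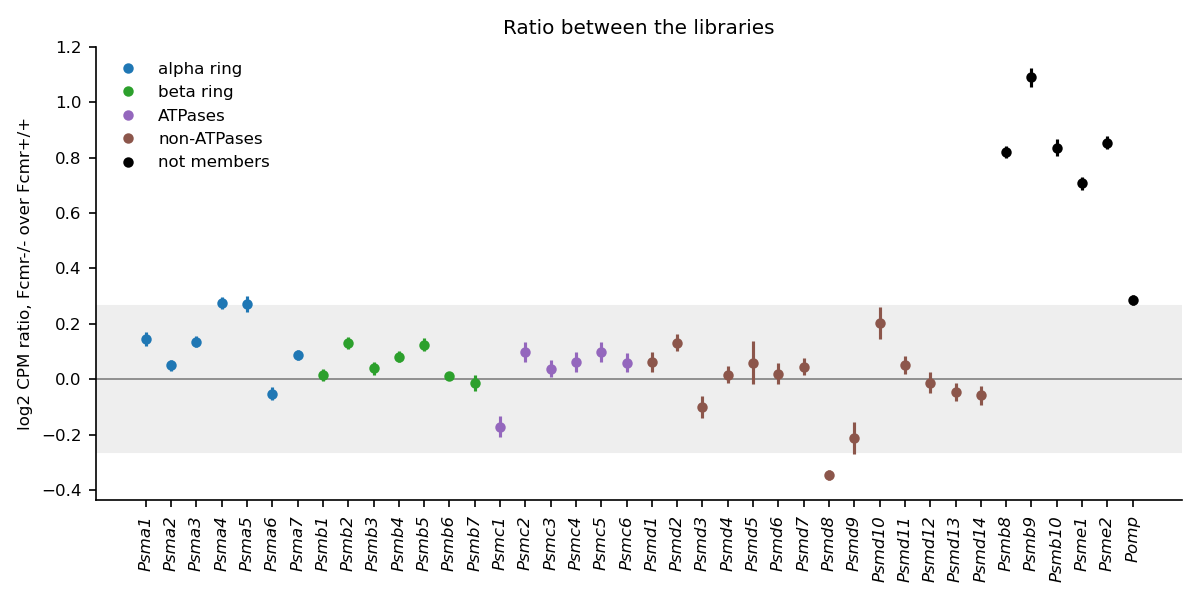
Log2 ratio of CPM in Fcmr-/- over Fcmr+/+ cells for the 34 members above 5 CPM, coloured by particle part, and in black for 6 genes outside the set, with 95% counting intervals. The grey band marks ratios within 1.2-fold, outside which lie Psma4 at 0.28, Psma5 at 0.27 and Psmd8 at -0.35 among members, while Psmb8, Psmb9, Psmb10, Psme1 and Psme2 lie at 0.71 or above.

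The alpha ring carries the gate of the core and docks the caps and activators. It was at 1769 CPM in Fcmr+/+ and 1926 CPM in Fcmr-/- cells, 8.86% higher, with a log2 ratio of 0.12 (interval 0.11 to 0.13), the furthest above 0 of the 4 parts. Psma4 had 250.2 CPM in Fcmr+/+ cells (interval 247.5 to 253) and 303 CPM in Fcmr-/- cells (interval 300.1 to 306), and its log2 ratio was 0.28 (interval 0.26 to 0.30). Psma5 had 147 CPM (interval 145 to 149) and 177 CPM (interval 175 to 180), which is a log2 ratio of 0.27 with an interval of 0.24 to 0.30. For both genes the counting intervals of the libraries were well apart. Thinned to 5000 UMIs per cell, Psma4 was seen in 67.2% of Fcmr+/+ and 72.0% of Fcmr-/- cells, while without thinning the shares were 92.6% and 90.8%, with Fcmr-/- cells at the lower depth. Both genes lay close to 1.2-fold. With cells thinned to 5000 UMIs 1 of them, Psma5, passed, and without the 2702 Fcmr+/+ and 3757 Fcmr-/- cells that held a UMI of another cell type's markers neither did, Psma4 then having a log2 ratio of 0.22. Psma7, the most abundant of the ring, had 357 CPM and 379 CPM, which is a log2 ratio of 0.09 with an interval of 0.07 to 0.11. That ratio was -0.04 as the mean over the clusters described below, -0.02 without clusters 2 and 8, and 0.02 without the cells with cell cycle markers. The last setting, defined by 3 UMIs of such markers, left out 4284 of 6352 Fcmr+/+ and 4054 of 7999 Fcmr-/- cells. It thus removed far more than the 1444 cells of cluster 6, the dividing cells. A fixed number of UMIs is reached more readily in deep cells, so this setting can also select by depth. The part of depth in its values was not tested. Psma1 and Psma3 had log2 ratios of 0.15 and 0.14, and Psma2 0.05. Psma6 went the other way, with 243 CPM in Fcmr+/+ and 234 CPM in Fcmr-/- cells, which is a log2 ratio of -0.05 with an interval of -0.08 to -0.03.

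The beta ring holds the proteolytic sites. It was at 1934 CPM in Fcmr+/+ and 2006 CPM in Fcmr-/- cells, which is a log2 ratio of 0.05 with an interval of 0.04 to 0.06. Psmb6, which carries the caspase-like site, was the most abundant member of all, with 488 CPM (interval 485 to 492) in Fcmr+/+ and 492 CPM (interval 488 to 496) in Fcmr-/- cells, and its intervals overlapped. Its log2 ratio of 0.01 was 0.23 without the cells with cell cycle markers, 0.06 after thinning and 0.06 as a mean of per-cell CPM. Psmb7, with the trypsin-like site, had 161 CPM and 159 CPM, which is a log2 ratio of -0.01 with an interval of -0.04 to 0.02. Psmb5, with the chymotrypsin-like site, had 227 CPM and 248 CPM, which is a log2 ratio of 0.12 with an interval of 0.10 to 0.15. Among the noncatalytic members the log2 ratio was 0.13 for Psmb2, 0.08 for Psmb4, 0.04 for Psmb3 and 0.02 for Psmb1, so no gene of the ring reached 1.2-fold over all cells. Without the cells with cell cycle markers Psmb5 was at 0.27 and passed it. Psmb2 was at 0.0036 as the mean over clusters and -0.0029 without clusters 2 and 8.

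The ATPases unfold substrates and open the gate. Their sum was 627 CPM in Fcmr+/+ and 642 CPM in Fcmr-/- cells, which is a log2 ratio of 0.03 with an interval of 0.02 to 0.05. It was 0.12 without the cells with cell cycle markers, 0.0023 as the mean over clusters and -0.012 without clusters 2 and 8. Psmc1, whose tail is among those that open the gate, was the 1 ATPase lower in Fcmr-/- cells, at 97.4 CPM against 86.4 CPM, which is a log2 ratio of -0.17 with an interval of -0.21 to -0.13. Psmc3, the most abundant, had 137 CPM and 141 CPM. Psmc2 and Psmc5 each had a log2 ratio of 0.10, Psmc4 and Psmc6 of 0.06 and Psmc3 of 0.04. None of the 6 reached 1.2-fold in either direction.

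The non-ATPases were the 1 part with a lower sum in Fcmr-/- cells, at 1655 CPM in Fcmr+/+ and 1571 CPM in Fcmr-/- cells, which is a log2 ratio of -0.08 with an interval of -0.08 to -0.07. That difference was carried by Psmd8, a subunit of the lid, the outer section of the cap. Psmd8 had 460.4 CPM in Fcmr+/+ cells (interval 457 to 464) and 362 CPM in Fcmr-/- cells (interval 359 to 366), which is a log2 ratio of -0.35 with an interval of -0.36 to -0.33. Without it the other 13 non-ATPases were at 1195 CPM and 1209 CPM, which is a log2 ratio of 0.02 with an interval of 0.01 to 0.03, and the 35 other members together at a log2 ratio of 0.07. Psmd8 also had a UMI in fewer Fcmr-/- cells after thinning, 79.9% against 83.8%, and in 95.6% against 98.2% without thinning.

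The other 7 lid genes, among them Psmd14, the deubiquitinase that cuts ubiquitin chains off the substrate, and its partner Psmd7, were at 737 CPM in Fcmr+/+ and 732 CPM in Fcmr-/- cells. Psmd14 had 109 CPM and 105 CPM, which is a log2 ratio of -0.06 with an interval of -0.09 to -0.02, and 0.04 without the cells with cell cycle markers. Psmd7 had a log2 ratio of 0.04, Psmd11 of 0.05 and Psmd6 of 0.02, while Psmd12 was at -0.01, Psmd13 at -0.05 and Psmd3 at -0.10. The 3 non-ATPase members counted here to the base, a section of the cap with docking sites for ubiquitin and its shuttles, were at 362 CPM and 380 CPM. Of these Psmd2 had 127 CPM and 139 CPM, which is a log2 ratio of 0.13 with an interval of 0.10 to 0.16. Psmd4, a ubiquitin receptor, had 131 CPM and 132 CPM, with overlapping intervals, and Psmd1 a log2 ratio of 0.06.

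The last 3 non-ATPase genes encode chaperones that help to assemble the cap and leave it before it is complete. Their values differed in direction. Psmd10, also known as gankyrin, had 34.2 CPM in Fcmr+/+ and 39.3 CPM in Fcmr-/- cells, which is a log2 ratio of 0.20 with an interval of 0.14 to 0.26. Psmd9 had 41.7 CPM and 36.0 CPM, which is a log2 ratio of -0.21 with an interval of -0.27 to -0.16. Psmd5, at 21.0 CPM and 21.9 CPM, had a log2 ratio of 0.06 and an interval over 0.

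Psma4, Psma5 and Psmd8 are the members past 1.2-fold between genotypes and Psmb6 is the most abundant, so the sequences just before their transcription starts are shown. They come from the RefSeq promoters of GRCm38.p6 and are given 5′ to 3′ on the strand of the gene, ending before the first base that RefSeq or GENCODE vM21 places in the gene. They are chr9:54950609-54950789 on the plus strand for Psma4, chr3:108256676-108256925 on the plus strand for Psma5, chr7:29180702-29180923 on the minus strand for Psmd8 and chr11:70525107-70525356 on the plus strand for Psmb6. Capitals mark matches on either strand to 5 motifs searched, namely TGANNNNGC (the antioxidant response core, read by Nfe2l1 and Nfe2l2), CCAAT, TTCNNNGAA (the GAS site of interferon signaling), GAAA, any 2 bases and GAAA again (an interferon response core) and ACGTG (the hypoxia response core), where N is any base.
Psma4: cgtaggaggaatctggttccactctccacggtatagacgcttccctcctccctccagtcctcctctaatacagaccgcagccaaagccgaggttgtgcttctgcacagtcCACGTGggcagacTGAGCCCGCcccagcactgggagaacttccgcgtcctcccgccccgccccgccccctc
Psma5: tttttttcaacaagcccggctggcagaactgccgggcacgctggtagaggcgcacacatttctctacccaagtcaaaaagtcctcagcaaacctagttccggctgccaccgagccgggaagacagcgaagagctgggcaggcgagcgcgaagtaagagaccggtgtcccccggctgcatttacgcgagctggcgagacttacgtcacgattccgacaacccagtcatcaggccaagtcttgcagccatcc
Psmd8: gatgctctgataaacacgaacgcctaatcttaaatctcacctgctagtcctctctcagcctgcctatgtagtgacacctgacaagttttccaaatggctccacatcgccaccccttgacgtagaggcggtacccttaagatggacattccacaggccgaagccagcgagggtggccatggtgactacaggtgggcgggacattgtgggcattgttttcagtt
Psmb6: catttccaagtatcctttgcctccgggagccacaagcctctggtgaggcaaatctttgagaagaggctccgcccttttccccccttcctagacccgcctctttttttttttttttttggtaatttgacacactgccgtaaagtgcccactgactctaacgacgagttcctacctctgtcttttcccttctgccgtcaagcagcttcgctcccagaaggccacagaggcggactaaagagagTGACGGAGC
The stretch of Psma4 held CACGTG, which is ACGTG read on both strands, and TGAGCCCGC, a match to TGANNNNGC. The stretch of Psmb6 held TGACGGAGC, a match to TGANNNNGC that ends right before the start RefSeq gives. No motif was found before Psma5 or Psmd8, in a window of 250 bases, which says only that these letters are not there.

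Of the 36 members 29 had a promoter entry, with 31 entries in all. TGANNNNGC stood in 13 of the 31 (41.9%) and in 35.2% of all 32851 promoter entries, in windows of 250 bases before the start. In the beta ring 4 of 5 entries held it, those of Psmb3, Psmb5, Psmb6 and Psmb11, and in the alpha ring 3 of 8. CCAAT stood in 12 of 31 entries (38.7%, against 33.8%), 5 of them among the 8 entries of the alpha ring. TTCNNNGAA was in 0 of 31 (against 7.02%), the interferon response core in 3 of 31 (9.68%, against 2.98%), before Psmb3, Psmd4 and Psmd9, and ACGTG in 6 of 31 (19.4%, against 16.6%). These are matches of letters, not binding sites.

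All 36 members were placed in GENCODE vM21, on 16 chromosomes. Psmd8 (ENSMUSG00000030591) lies on the minus strand of chromosome 7 from 29174188 to 29180701 and no annotated gene overlaps it. Psma4 (ENSMUSG00000032301) spans chromosome 9 from 54950790 to 54958030 on the plus strand, with AY074887 on the opposite strand, and Psma5 (ENSMUSG00000068749) chromosome 3 from 108256926 to 108279974, with 1700010K24Rik on the opposite strand. For 16 members another gene overlaps, on the same strand for 8 of them, Psmd13 and Psmb7 among them. The annotation names 4 pseudogenes after members, 1 for Psmb5, 2 for Psmb6 and 1 for Psmb7, and reads from such copies could move UMIs between rows.

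To follow the genes across phagocyte states, the 14351 cells of the pair of libraries were clustered jointly by variable genes other than proteasome genes, which gave 11 clusters numbered by size. They are named here by leading genes and not by cell type. Cluster 2 (Ly6c2, Cxcl9, Gbp2) and cluster 8 (Iigp1, Serpina3g, Cxcl9) had 2.93 and 5.74 times the interferon gamma marker level of the other cells, and 95.6% and 94.7% of their cells came from the Fcmr-/- library. With 1 library per genotype such a cluster cannot be told apart from its library. Cluster 10 (Rsad2, Ifit3, Mx1) had 15.9 times the type I interferon level, cluster 4 (Inhba, Nos2, Egln3, Adm) 3.66 times the hypoxia level, and cluster 6 (Top2a, Cenpf, Plk1) 21.3 times the G2 and mitosis level. The first leading gene of cluster 4 was Hbb-bs, a hemoglobin gene. Its macrophage marker level was 0.591 times that of the other cells, the lowest of the 11 clusters, and the part of RNA from other cells was not tested. Cluster 1 (Ccl17, Il1r2, Mgl2) had 3.72 times the MHC class II and 13.3 times the dendritic cell level. The others were cluster 3 (Tfrc, Gas6, Slc40a1), cluster 5 (Cxcl3, Spp1, Il1b), cluster 7 (Acp5, Apoe, Cirbp), cluster 9 (Mfge8, Gpnmb, Ctsk) and cluster 11 (Adm, Pdgfa, Cd5l, Mmp12).

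Summed over both libraries the constitutive subunits varied 1.25-fold among the 11 clusters. They were highest in cluster 2, at 6674 CPM, followed by clusters 5 and 8 at 6561 and 6443 CPM. They were lowest in cluster 4, at 5358 CPM, followed by clusters 1 and 11 at 5582 and 5731 CPM. Cluster 4 was lowest within each library, at 5552 CPM in Fcmr+/+ and 5161 CPM in Fcmr-/- cells. Cluster 2 was highest among Fcmr-/- cells, at 6677 CPM, and among Fcmr+/+ cells, at 6607 CPM, it came after cluster 5 at 6680 CPM. Immunoproteasome catalytic genes varied 4.13-fold over the same clusters, and the CCT chaperonin, another ring-shaped complex of many subunits, 1.48-fold. These are sums over unlike numbers of genes, and a sum can even out opposite courses. Without Psmd8 the members together varied 1.35-fold. Taken alone, members above 5 CPM varied up to 2.17-fold (Psmd8), and Psmb8, Psmb9 and Psmb10 3.73-fold, 5.18-fold and 4.46-fold. Cells differed in depth too, with a median of 8838 UMIs in cluster 10, 9079 in cluster 4 and 26374 in cluster 6. With every cell thinned to 5000 UMIs the range was 5248 to 6671 CPM.

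**Figure D3:**
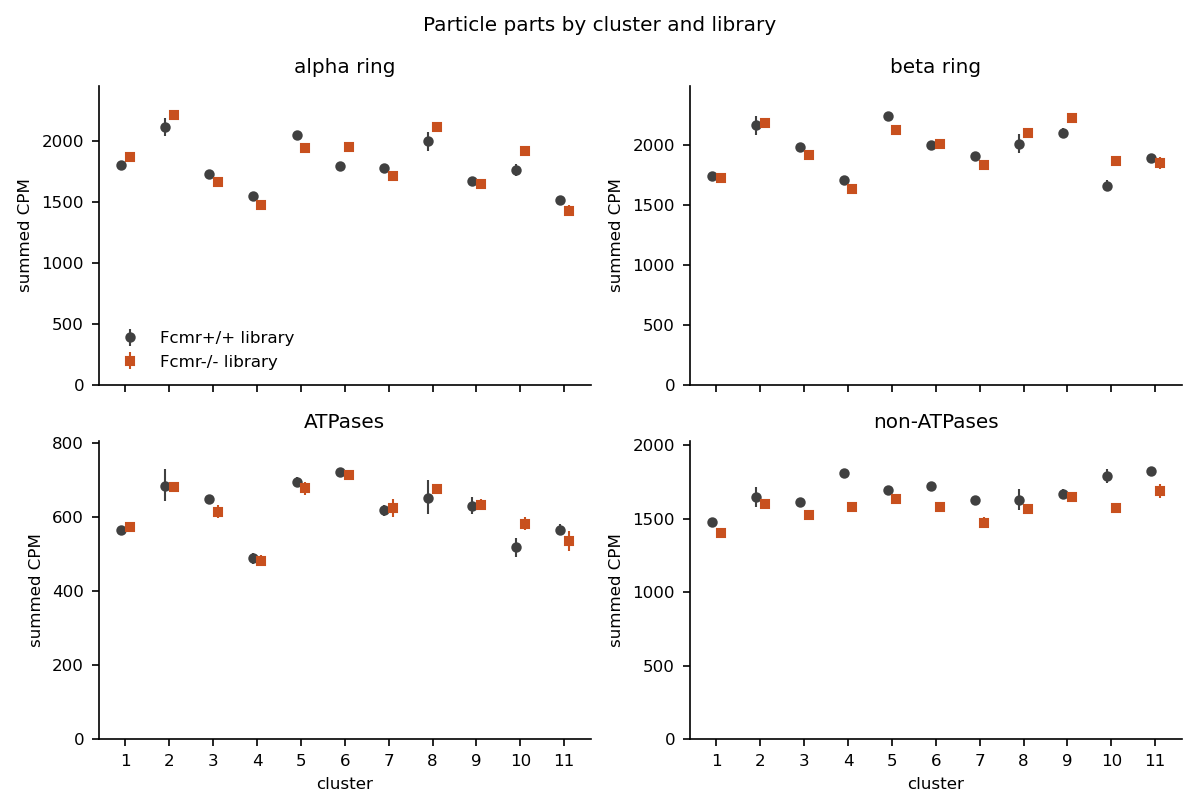
Summed CPM of each particle part in the 11 clusters, with Fcmr+/+ cells as circles, Fcmr-/- cells as squares and 95% counting intervals as bars, on axes that start at 0. The alpha ring, beta ring and ATPases are low in cluster 4 in both libraries, and the non-ATPases, Psmd8 among them, are lower in Fcmr-/- than in Fcmr+/+ cells in all 11 clusters. Without Psmd8 they are lower in 4 of the 11 (not drawn).

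The parts did not follow the same course. The alpha ring ran from 1499 CPM in cluster 11 to 2207 CPM in cluster 2, the beta ring from 1665 CPM in cluster 4 to 2193 CPM in cluster 5, and the ATPases from 485 CPM in cluster 4 to 718 CPM in cluster 6, the dividing cells. The non-ATPases were highest in cluster 11, at 1793 CPM, where the alpha ring was lowest. Without Psmd8 the non-ATPases were instead lowest in cluster 4, at 1026 CPM, and highest in cluster 5, at 1321 CPM. With Psmd8 they were lower in Fcmr-/- cells in all 11 clusters, and without it higher in 7 and lower in 4.

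Counted by gene, 19 of 34 members were at least 1.2-fold lower in cluster 4 than in the other cells, beside 51.0% of all genes tested there, and 1 was higher, beside 15.6%. The 1 higher was Psmd8. In cluster 1, 7 members were lower, beside 20.3% of genes, and 0 higher, beside 16.2%. In cluster 11, 13 members were lower, beside 30.8% of genes and 2 higher, Psmb6 and Psmd8, beside 15.5%. In cluster 2, 6 members were higher, beside 7.97% of genes, and 0 lower, beside 25.7%. In cluster 5, 3 were higher, beside 5.72%, and 0 lower, beside 30%. In cluster 8, 3 were higher, Psma4, Psma5 and Psmb2, beside 20.3% of genes, and 1 lower, Psmd8, beside 16.9%. The share lower in cluster 4 was close to that of all genes, while in clusters 2 and 5 no member was among the genes that were lower. The median log2 difference of members was -0.34 in cluster 4 (all genes -0.28), 0.13 in cluster 2 (all genes -0.09), 0.13 in cluster 5 (all genes -0.12), -0.14 in cluster 1 (all genes -0.04), -0.22 in cluster 11 (all genes -0.09) and 0.10 in cluster 8 (all genes 0.05).

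Psmd8 and Psmb6 stood apart from the other members in these profiles. Psmd8 was highest in clusters 11, 4 and 10, at 688, 670 and 526 CPM, and lowest in cluster 8, at 318 CPM. Against all other cells it was 0.80 higher on the log2 scale in cluster 11, 0.77 in cluster 4 and 0.37 in cluster 10, and -0.41 in cluster 8. Psmb6 was highest in clusters 9 and 11, at 678 and 673 CPM, and lowest in cluster 1, at 317 CPM, a 2.14-fold range. Psma4 and Psma5 ran the other way, from 192 and 104 CPM in cluster 4 to 358 CPM in cluster 2 for Psma4 and 217 CPM in cluster 8 for Psma5. Clusters 4 and 10 were also the shallowest, and Psmd8 was higher in shallow cells within each library: in the quartile of cells with the fewest UMIs it had 547 CPM in Fcmr+/+ and 403 CPM in Fcmr-/- cells, against 439 and 345 CPM in the quartile with the most. The part of depth in the cluster pattern of Psmd8 was not tested, and cluster 11 had a median of 19130 UMIs. Clusters 4, 10 and 11 had the highest hypoxia marker levels, at 3.66, 2.17 and 1.66 times the other cells. Cluster 8 had the lowest, at 0.368 times, and the part of hypoxia was not tested. Cluster 11 also had 3.07 times the melanoma marker level of the other cells, with the melanocyte gene Dct among its leading genes, and the part of that RNA was not tested either.

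The difference of Psmd8 between libraries was present in every cluster. It was lower in Fcmr-/- cells in 11 of 11 clusters, with the interval below 0 in all 11, from a log2 ratio of -0.08 in cluster 5 (360 and 340.1 CPM) to -0.70 in cluster 10 (717 and 443 CPM). In cluster 4 it had 780.0 CPM in Fcmr+/+ and 558 CPM in Fcmr-/- cells, and in cluster 11 it had 722 and 569 CPM. It was lower by at least 1.2-fold in 8 clusters, and lower in Fcmr-/- cells in each of the 4 quartiles of depth. Psmd9 was also lower in Fcmr-/- cells in all 11 clusters, with the interval below 0 in 6, and Psmd2 was higher in all 11, with the interval above 0 in 6. Of all genes tested 3.99% were lower and 5.75% higher in every cluster, so that 2 and 1 of 34 members lay close to these shares. The largest Psmd2 difference was in cluster 11, at 120.0 CPM in Fcmr+/+ and 158 CPM in Fcmr-/- cells.

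Psma4 and Psma5 behaved otherwise. Psma4 was higher in Fcmr-/- cells in 8 of 11 clusters, with the interval above 0 in 6 and below 0 in 0, and its log2 ratio reached 0.37 in cluster 10 (244 and 315 CPM) and 0.28 in cluster 6 (268 and 325 CPM). It was at -0.11 in cluster 11 and 0.00 in clusters 5 and 7. Psma5 was higher in 6 and lower in 5 of 11 clusters, with 0.34 in cluster 6 (153 and 193 CPM) and -0.16 in cluster 11. Averaged over clusters with equal weight, the log2 ratio was 0.12 for Psma4 and 0.07 for Psma5, and -0.36 for Psmd8. In a check chosen after the data were seen, clusters 2 and 8 were left out, with 125 Fcmr+/+ and 2493 Fcmr-/- cells. Then 0 members were higher by 1.2-fold, and the share of all genes in that setting is not given here. Psma4 then had a log2 ratio of 0.12 and Psmd8 one of -0.29. The same held for the sums. The alpha ring had a mean within-cluster log2 ratio of 0.01 and one of 0.02 without clusters 2 and 8, and all members together had -0.02 in both settings, in the direction opposite to the pooled 0.04.

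**Figure D4:**
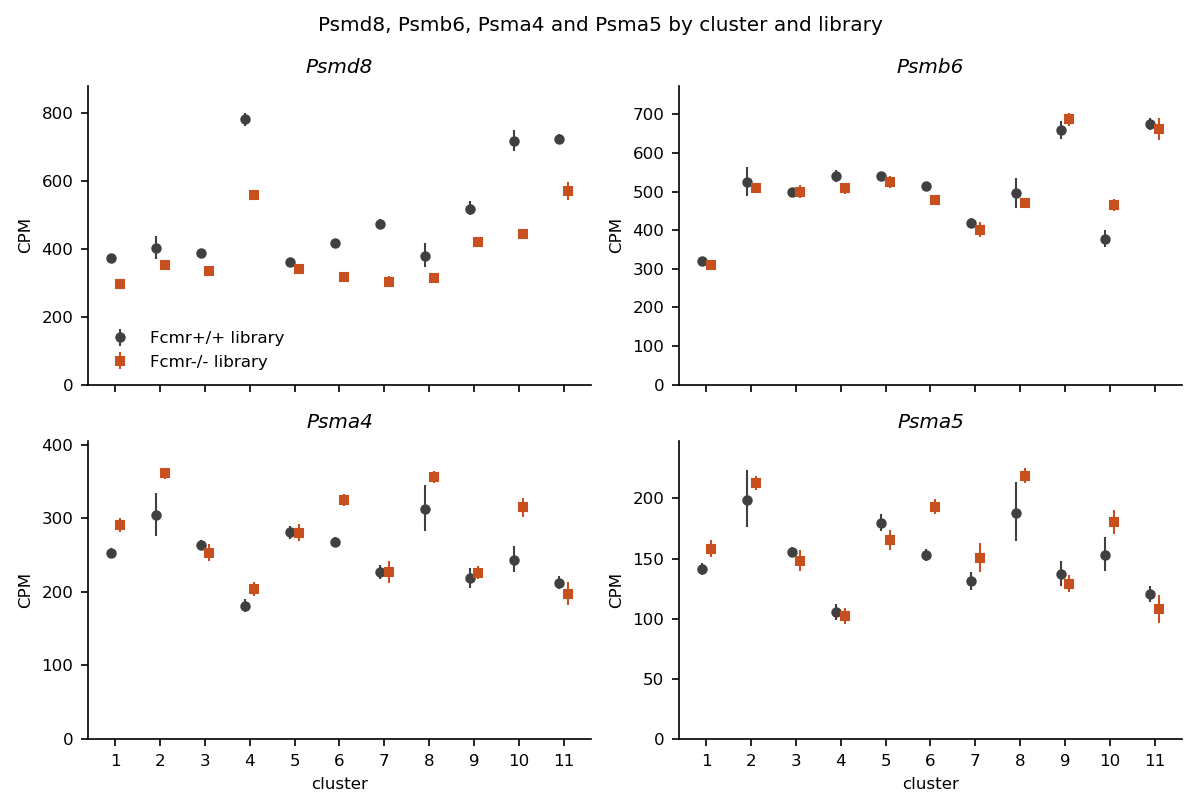
CPM of Psmd8, Psmb6, Psma4 and Psma5 in the 11 clusters, with Fcmr+/+ cells as circles, Fcmr-/- cells as squares and 95% counting intervals as bars, on axes that start at 0. Psmd8 is lower in Fcmr-/- cells in all 11 clusters and high in clusters 4, 10 and 11, whereas Psma4 and Psma5 are low in cluster 4 and high in clusters 2 and 8.

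Profiles over the 22 groups of cells made by 11 clusters and 2 libraries were compared by Pearson's r of log2 CPM, as a description, since the groups share libraries and depth. The median r between members was 0.46. The most alike were Psmb3 and Psmb4, at 0.97, and Psma4 and Psma5, at 0.96. Psma4 and Psma5 were also the members most like the summed immunoproteasome catalytic genes, at 0.90 and 0.87, where the median member was at 0.36 and 29 of 34 were above 0. Psmb6 was at -0.48 and Psmd8 at -0.54. The share of all genes above 0 is not given here. The groups are made from the same 2 libraries between which Psma4, Psma5 and the immunoproteasome genes were higher in Fcmr-/- cells. Psmd8 had an r of -0.65 with the sum of the other members, and its most alike member was Psmb6, at 0.38. Psmd8 varied most over the groups among the 34, with a standard deviation of 0.42 on the log2 scale, against a median of 0.21.

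At the catalytic sites each constitutive subunit has an immunoproteasome counterpart that can take its place. Psmb5, Psmb6 and Psmb7 took 68.0% of all catalytic UMIs in Fcmr+/+ cells (interval 67.8 to 68.2) and 54.2% in Fcmr-/- cells (interval 54.0 to 54.5). The constitutive sum was 876 CPM in Fcmr+/+ and 899 CPM in Fcmr-/- cells, a log2 ratio of 0.04, so that the shift in share lay in the immunoproteasome genes. By site, the constitutive gene took 86.6% and 75.4% of the caspase-like pair Psmb6 and Psmb9, 61.4% and 46.9% of the trypsin-like pair Psmb7 and Psmb10, and 49.0% and 37.2% of the chymotrypsin-like pair Psmb5 and Psmb8. These are shares of transcript ends, not of assembled particles.

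**Figure D5:**
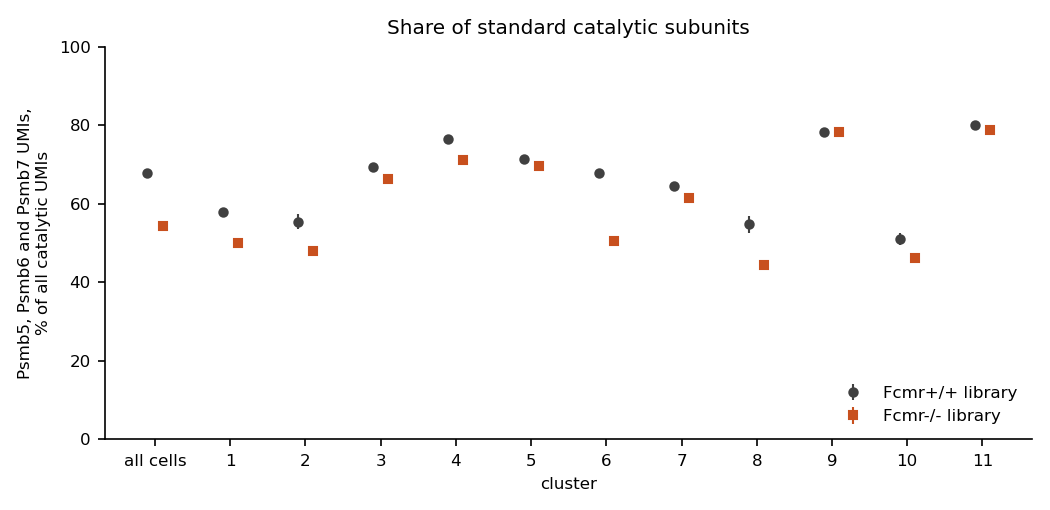
Percent of catalytic subunit UMIs that came from Psmb5, Psmb6 and Psmb7, the rest being from Psmb8, Psmb9 and Psmb10, over all cells and in the 11 clusters, for Fcmr+/+ (circles) and Fcmr-/- cells (squares) with 95% Clopper-Pearson intervals. The share runs from 44.3% in Fcmr-/- cells of cluster 8 to 80.0% in Fcmr+/+ cells of cluster 11, and the libraries are level in cluster 9 at 78.3%.

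Among clusters the constitutive share was lowest in clusters 8, 10 and 2, at 44.9%, 47.4% and 48.3%. In the same order their interferon gamma marker levels, the highest of the 11 clusters, were 5.74, 2.20 and 2.93 times those of the other cells. Their type I interferon levels were 0.846, 15.9 and 1.14 times. The part of either interferon in the share was not tested. The share was highest in clusters 9 and 11, at 78.3% and 79.8%. It was lower in Fcmr-/- cells in 10 of 11 clusters. The widest gap was in the dividing cells of cluster 6, with 67.9% in Fcmr+/+ (interval 67.3 to 68.4) and 50.6% in Fcmr-/- cells (interval 50.03 to 51.1), and in cluster 9 the share was 78.3% in both. The T and NK cell list was 7.74 times the level of other cells in cluster 6, and its part in that gap was not tested. The constitutive catalytic sum itself ran from 662 CPM in cluster 1 to 1163 CPM in cluster 9, a 1.76-fold range that came mostly from Psmb6 and Psmb5, since Psmb7 varied 1.25-fold.

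Genes that work with the constitutive particle were looked at by lists, and the counts in each are read beside the 9.65% of all genes that were higher and the 10.8% that were lower by 1.2-fold. All 3 of 3 immunoproteasome catalytic genes were at least 1.2-fold higher in Fcmr-/- cells, with log2 ratios of 0.82 for Psmb8, 1.09 for Psmb9 and 0.84 for Psmb10. As means over the clusters these ratios were 0.31, 0.50 and 0.32. Of 5 activator and inhibitor genes 2 were, namely Psme1 (195 and 319 CPM) and Psme2 (188 and 341 CPM), which form the interferon-inducible activator PA28. The other activators Psme3 and Psme4 were at 0.01 and 0.14, and the inhibitor Psmf1 at -0.13. Of 5 assembly chaperones of the core 1 was higher, Pomp, at 330 CPM in Fcmr+/+ and 402 CPM in Fcmr-/- cells (log2 ratio 0.29), which matures both kinds of core. Psmg4 was at 0.26 and the 3 others, Psmg1, Psmg2 and Psmg3, between 0.11 and 0.18. Both Psme1 and Psme2 were highest in cluster 2 and lowest in cluster 11, as the alpha ring was.

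Of 7 other subunits and bound factors 1 was higher, AI314180, at a log2 ratio of 0.29, and 0 were lower. Adrm1, a ubiquitin receptor of the cap, was at 0.03, Shfm1 at 0.06 and the deubiquitinases Usp14 and Uchl5 at 0.00 and -0.20. Of the genes for ubiquitin and its shuttles, Ubb, which encodes ubiquitin, was at -0.02, the shuttle factor Rad23b at -0.09, and Vcp, the segregase that pulls tagged proteins out of complexes, at 0.01. Of 8 regulators of proteasome genes 0 were higher (all genes 9.65%) and 2 lower (all genes 10.8%), Maff at -0.77 and Mafk at -0.51, which encode small partners of Nfe2l1 and Nfe2l2. Nfe2l1, the activator of proteasome genes when proteasome activity is short, was at 0.12 and Nfe2l2 at -0.09. Ddi2 and Mafg were each at -0.23 with intervals below 0, Ngly1 was at 0.11 and Keap1 at 0.04. The median log2 ratio of the regulators was -0.16. For comparison 0 of 7 CCT chaperonin genes passed 1.2-fold, with log2 ratios from -0.01 to 0.12, and the median of 81 ribosomal protein genes was -0.03, with 2 higher and 2 lower. The 34 constitutive proteasome genes tested ran from -0.35 to 0.28, a wider range than that of the chaperonin genes, but over more genes. The 81 ribosomal protein genes ran from -0.35 to 0.37. Among the 34 only Psma4, Psma5 and Psmd8 reached 1.2-fold, and the difference between the lists was not tested.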

How the data were processed

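The authors sorted MerTk+ CD64+ TMPs and made droplet libraries with the Chromium Single Cell 3′ kit. They mapped reads to GRCm38 with Cell Ranger and deposited the resulting UMI counts, which are raw and not normalized.

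The members and lists were chosen with earlier results of these data known. The study's filters were applied, which are a UMI in at least 3 cells for a gene and, for a cell, 200 to 7000 genes and at most 30% mitochondrial UMIs, leaving 14351 of 14409 cells. No doublet caller was run. Counts were summed per group of cells and scaled to 1000000 UMIs (CPM). Ratios were taken without a pseudocount, and a call needed 1.2-fold and 5 CPM in either group. Intervals are exact (Poisson for CPM, Clopper-Pearson for shares and for ratios) and cover counting error only. Those of ratios were run on counts simulated from the Poisson model that they assume, which does not test variation between cells. Clustering used Seurat 5.3.0 in R 4.3.3 (log-normalization to 10000, log mean 0.0125 to 3, dispersion over 0.5, 10 principal components, 30 neighbors, resolution 0.8, 10 starts), on 1332 variable genes after 4 proteasome-related genes, none of them a member, were left out. Leading genes of a cluster are among its 10 highest by fold with at least 50 CPM. Other steps used Python 3.11.15, numpy 2.4.6 and scipy 1.17.1. All members are named, and partner genes come only from the lists. Alternatives covered filters, depth, scaling, weighting, cell states, marker-bearing cells, the fold, the minimum and the clustering. Libraries were grouped by their genotype labels, and with 1 library per genotype no p-value was computed. The genes Cct6a and Paaf1 were looked for and not used here. Sem1 and Ecpas were looked for too, and are reported under their older symbols Shfm1 and AI314180. Some members of the ubiquitin list are not reported here.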

Additional observations from a re-analysis of the deposited data

How the results depend on the processing

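No paired analysis was possible because each genotype has 1 library. Values below are log2 ratios of Fcmr-/- to Fcmr+/+ cells, percentages or CPM, and the counting intervals they were set against are narrow, so that small shifts fall outside them. Against a value of 0.038 for all members, it was 0.046 in cells with at most 5000 genes, 0.031 after thinning to 5000 UMIs, 0.027 with ribosomal and mitochondrial genes out of the total, 0.081 without cells with cell cycle markers, 0.022 without cells with markers of other cells, -0.023 as the mean over clusters and -0.019 without clusters 2 and 8. Against 0.12 for the alpha ring, it was 0.10 after thinning, 0.11 with the reduced total, 0.10 as the mean of per-cell CPM, 0.090 without cells with markers of other cells, 0.0074 as the mean over clusters and 0.019 without clusters 2 and 8. Against 0.053 for the beta ring, it was 0.064 at 5000 genes, 0.042 with the reduced total, 0.13 without cell cycle markers, 0.036 without other cells, 0.0039 as the mean over clusters and -0.0014 without clusters 2 and 8. Against 0.034 for the ATPases, it was 0.051 at 5000 genes, 0.12 without cell cycle markers, 0.019 without other cells, 0.0023 as the mean over clusters and -0.012 without clusters 2 and 8. Against -0.075 for the non-ATPases, it was -0.066 at 5000 genes, -0.086 with the reduced total, -0.039 without cell cycle markers and -0.099 as the mean over clusters. The alpha ring and the non-ATPases kept their direction under each alternative run, but not within each cluster. The alpha ring was higher in Fcmr-/- cells in 5 of 11 clusters and lower in 6. The non-ATPases were lower in all 11, but without Psmd8 they were higher in 7 and lower in 4. The setting without cell cycle markers left out 4284 Fcmr+/+ and 4054 Fcmr-/- cells, by a fixed number of UMIs that deep cells reach more readily. The cause of the shifts in these values was not tested.

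The number of members at least 1.2-fold higher was 2, and it was 1 after thinning, 1 with the reduced total, 0 for the mean of per-cell CPM, 4 without cells with cell cycle markers (Psma4, Psmb5, Psmd5 and Psmd10), 0 without cells with markers of other cells, 0 as the mean over clusters, 0 without clusters 2 and 8, and 0 at 1.5-fold. The number lower was 1, Psmd8, and was 0 at 1.5-fold and 2 with no minimum CPM, where Psmb11 with its 7 and 3 UMIs joins. The shares of all genes that pass under these alternatives are not given here. Whether a change in these counts is particular to members was not tested. The constitutive catalytic share of 68.0% in Fcmr+/+ cells was 66.9% after thinning, 66.8% by per-cell means, 64.2% without cell cycle markers, 67.5% without other cells, 66.1% as the mean over clusters and 68.3% without clusters 2 and 8. The share of 54.2% in Fcmr-/- cells was 55.1% at 5000 genes, 55.2% after thinning, 55.0% by per-cell means, 56.1% without cell cycle markers, 56.1% without other cells, 60.4% as the mean over clusters and 60.3% without clusters 2 and 8, a setting chosen after the data were seen. It was lower in Fcmr-/- than in Fcmr+/+ cells under each of these.

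The lowest cluster level of 5358 CPM became 5595 at resolution 0.4, 5394 at resolution 1.2, 5248 after thinning and 6574 with the reduced total, and the highest of 6674 CPM became 6525 at resolution 0.4 and 8249 with the reduced total. The lowest cluster share of 44.9% became 46.3% at resolution 0.4 and 41.8% with 20 principal components. The highest of 79.8% became 76.9% at resolution 0.4, 80.4% at resolution 1.2, 78.9% with 20 principal components and 80.5% after thinning. Counting error is small in the summed values, which rest on 768531 and 765766 UMIs, but their level moved with cell depth, the spread between mice is unknown, and for Psma8 and Psmb11 the counts were too few for a comparison.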
